A study of Bos taurus with 8 samples.

Results

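The genes described here belong to IL6 family cytokine and JAK-STAT signaling, in the inner cell mass (ICM) and the trophectoderm (TE) of bovine blastocysts. They are the ligand gene IL6, the receptor genes IL6R, IL6ST and LIFR, the kinase genes JAK1 and JAK2, the transcription factor genes STAT3 and STAT5A, and the feedback gene SOCS3. Probes were taken by the gene symbol that the array platform pairs with them, which found all 9 genes among 15229 with a symbol and 15 of 43794 probes. IL6R, IL6ST, LIFR, STAT5A and SOCS3 had 1 probe each, IL6 and JAK1 had 2, and JAK2 and STAT3 had 3.

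IL6 binds its receptor IL6R, and the pair joins IL6ST (gp130), the signal-transducing chain that the cytokine family shares, while LIF reaches the same chain through LIFR. The kinases JAK1 and JAK2 on the receptor tails then phosphorylate STAT3, which enters the nucleus and switches on genes that include SOCS3, an inhibitor of the same receptors. In mouse, LIF acting through STAT3 keeps embryonic stem cells pluripotent, and in cattle IL6 added to embryo culture raises the number of ICM cells.

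The RNA came from good expanded blastocysts of superovulated Holstein cows, collected 7.5 days after insemination. TE was a piece of each embryo cut away with a blade. ICM was what remained after the other piece had been treated with antiserum and complement, a treatment that TE pieces did not receive. Embryos were pooled into 4 pools of ICM and 4 of TE. By the sample labels, each pool pair was hybridised on 2 two-color arrays, once with ICM in Cy5 and once with ICM in Cy3. All arrays with ICM in Cy5 lay on 1 slide and all with ICM in Cy3 on another, so the dye cannot be told apart from the slide. The sources used here do not say whether different cows fed different pools, so the tests measure the spread between these pool pairs. In pooled tissue, fewer cells that express a gene and less RNA per cell cannot be told apart.

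The tissue of each channel was read from the dyes in the sample labels. By these dyes the direction runs against the one the study gives, so the groups are named by label only, as RNA labelled ICM and as RNA labelled TE. Arrays with ICM in Cy5 or in Cy3 are likewise named by label only. All ratios are log2 of the RNA labelled ICM over that labelled TE, and a gene was called at an adjusted p (limma, over all probes) at or below 0.01. NANOG, a pluripotency factor of the epiblast, had a ratio of -3.50 with an SE of 0.21 (limma adjusted p 0.00317). Of 8 epiblast genes all were negative and 5 were called, DPPA3 among them (-0.40, SE 0.03). Of 10 trophoblast genes all were positive and 8 were called, led by TFAP2A, a trophoblast transcription factor (2.05, SE 0.06). All 5 measured hypoblast genes were negative and none was called (limma, 3 with an unadjusted p under 0.05), with HNF4A at -2.74 (SE 0.29, adjusted p 0.0102) and PDGFRA at -1.73 (SE 0.23, adjusted p 0.0174). SOX17, named after its value was seen, lay near background at -0.0087 (SE 0.03, limma adjusted p 0.898), so its sign carries little information. These markers go against the labels. The summed linear signal of the epiblast genes was 11836 to 14973 in the pools labelled ICM and 32697 to 49988 in the pools labelled TE. The trophoblast sum was 160578 to 170347 in the pools labelled ICM and 84032 to 96797 in the pools labelled TE, and the hypoblast sum was 4334 to 8771 in the pools labelled ICM and 23315 to 29622 in the pools labelled TE. None of these ranges overlapped, and the part of these cell types in the ratios below was not tested. Exchanged labels would turn the sign of every ratio and leave its size and p as they are.

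IL6, IL6R, IL6ST, JAK2 and STAT3 were lower in the RNA labelled ICM on all 8 arrays by their brightest probe, while LIFR, JAK1 and STAT5A had mean ratios between -0.011 and 0.025 and SOCS3 was not well above background. IL6ST was the 1 gene of 9 called, and it was lower, against 5.27% of all genes called and 1.92% called lower. By probes it was 1 of 15, against 3.27% of all probes called and 1.35% called lower. At an adjusted p of 0.05 IL6, IL6ST and STAT3 passed, all lower, against 6.85% of all genes. The 5 genes lower on all 8 arrays compare with 11.0% of all genes, and the 7 such probes of 15 with 8.86% of all probes. Negative ratios were found for 13 of the 15 probes and for 45.4% of all probes. The 13 include SOCS3, and also LIFR, STAT5A and the dimmer JAK1 probe, which were well above background on a minority of channels. The signs of these dim probes carry little information. Every probe of JAK2 and STAT3 is also among the 13, so they are not 13 separate genes. The median ratio of the 9 genes was -0.41, beside 0.0082 over all genes.

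**Figure D1:**
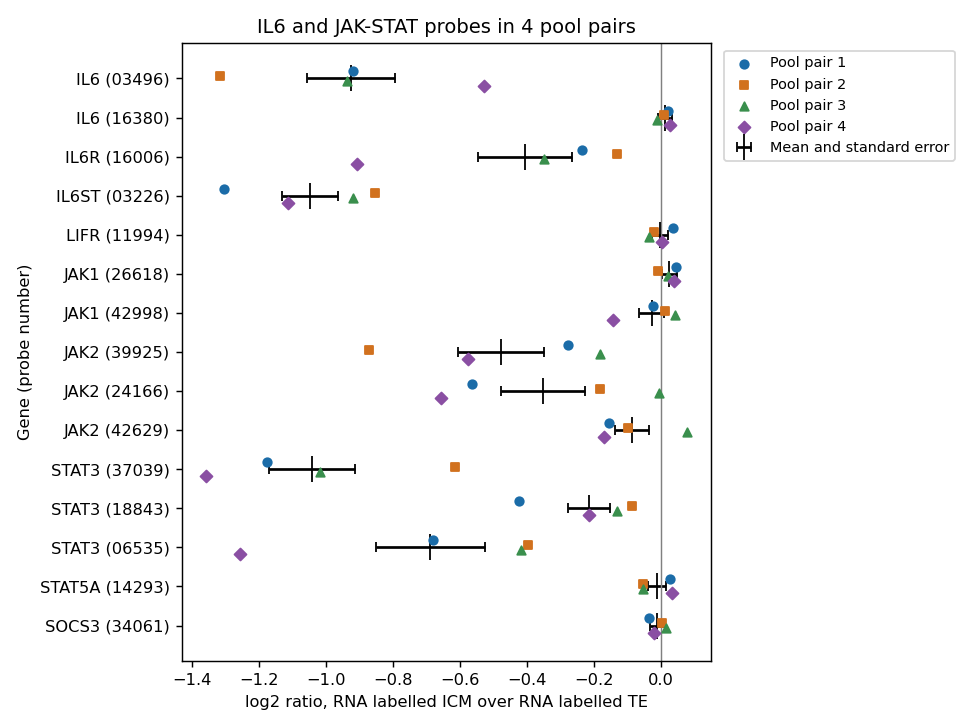
Each point is the log2 ratio of the RNA labelled ICM over that labelled TE (x axis) in 1 of 4 pool pairs, the mean of 2 dye-swapped arrays, for the 15 probes down the y axis; bars give the mean and its standard error. The brightest probes of IL6, IL6ST and STAT3 lie between -1.36 and -0.53, and those of LIFR, JAK1 and STAT5A between -0.053 and 0.046.

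The ligand gene IL6 had a bright and a dim probe. On the bright probe (EMBV3_03496) the normalised log2 signal was 8.98, 8.79, 8.80 and 9.33 in pools 1 to 4 labelled ICM, against 9.90, 10.11, 9.73 and 9.86 in pools 1 to 4 labelled TE. The groups did not overlap, as was the case for 3 of the 9 genes in this direction and for 8.70% of all genes. The mean ratio was -0.92 (SE 0.13, n = 4), a 1.90-fold difference, and its limma adjusted p of 0.0201 missed the threshold for calls. Pool pair 4 gave the smallest ratio (-0.53) and pool pair 2 the largest (-1.32). Arrays with ICM in Cy5 averaged -0.98 and arrays with ICM in Cy3 averaged -0.87. The dim probe (EMBV3_16380) was not well above background with either label: on 0 of 16 channels did it pass the limit set by 153 negative control spots (their mean plus 2 SD), so no fold is given for it.

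Among the receptors, IL6ST, the shared signal-transducing chain, had the largest ratio. Its normalised log2 signal was 8.32, 8.85, 8.97 and 8.88 in pools 1 to 4 labelled ICM, against 9.63, 9.70, 9.89 and 9.997 in pools 1 to 4 labelled TE. The groups did not overlap, and pool 1 labelled ICM was the lowest of the 8 pools. IL6ST was lower in the RNA labelled ICM by 1.05 on the log2 scale (SE 0.08, n = 4), a 2.07-fold difference with a limma adjusted p of 0.00563. The ratio was -1.31, -0.85, -0.92 and -1.11 in pool pairs 1 to 4. It was as large on either slide, at -1.07 with ICM in Cy5 and -1.03 with ICM in Cy3. Without pool pair 2, 3 or 4 the ratio was -1.11, -1.09 and -1.03 and the call was lost (limma adjusted p 0.0205, 0.0301 and 0.0418), as was every other call of the arrays. With median centring in place of loess the adjusted p was 0.0610.

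IL6R, the chain that binds IL6 itself, passed the limit on all 16 channels. Its normalised log2 signal was 8.42, 8.59, 8.19 and 8.17 in pools 1 to 4 labelled ICM, against 8.66, 8.72, 8.54 and 9.08 in pools 1 to 4 labelled TE. The groups overlapped, although the RNA labelled ICM was lower within each of the 4 pairs. The ratio was -0.23, -0.13, -0.35 and -0.91 in pool pairs 1 to 4. The mean was -0.41 (SE 0.14, limma adjusted p 0.185), and -0.24 without pool pair 4 (adjusted p 0.123). LIFR, the receptor chain for LIF, passed the limit on 2 of 8 channels of either label. Its log2 signal was 7.93 to 7.99 in the pools labelled ICM and 7.94 to 7.996 in the pools labelled TE, and its mean ratio was -0.0030 (SE 0.02, adjusted p 0.963).

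**Figure D2:**
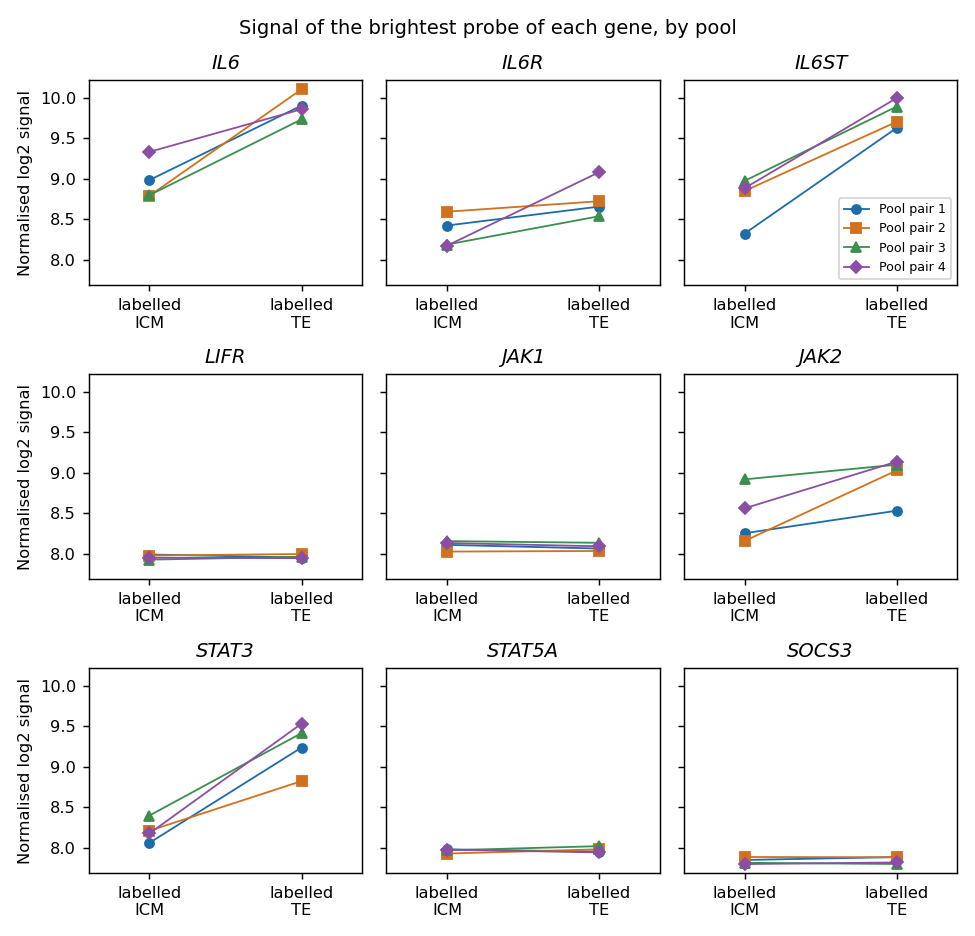
The y axis is the normalised log2 signal of the brightest probe of each of the 9 genes in the 4 pools labelled ICM (left) and the 4 pools labelled TE (right), with a line joining the pools of 1 pair. The lines of IL6, IL6R, IL6ST, JAK2 and STAT3 slope up to the RNA labelled TE in all 4 pairs, and those of LIFR, JAK1, STAT5A and SOCS3 are nearly flat.

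The kinase gene JAK2 was measured by 3 probes, all with a negative mean. The brightest (EMBV3_39925) had a log2 signal of 8.25, 8.16, 8.92 and 8.56 in pools 1 to 4 labelled ICM, against 8.53, 9.03, 9.10 and 9.14 in pools 1 to 4 labelled TE. The groups overlapped, since pool 3 labelled ICM lay above pool 1 labelled TE. Its ratios of -0.28, -0.87, -0.18 and -0.58 averaged -0.48 (SE 0.13, limma adjusted p 0.100), with -0.42 on arrays with ICM in Cy5 and -0.54 on arrays with ICM in Cy3. The second probe (EMBV3_24166) averaged -0.35 (SE 0.13, adjusted p 0.196), with -0.15 on arrays with ICM in Cy5 and -0.55 on arrays with ICM in Cy3. The dimmest (EMBV3_42629) averaged -0.085 (SE 0.05, adjusted p 0.444). All 3 probes had their ratio nearest to 0 in pool pair 3, at -0.18, -0.0044 and 0.079.

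JAK1, the kinase that gp130 receptors depend on most, had 2 probes and neither was called (limma, 0 with an unadjusted p under 0.05). The brighter probe (EMBV3_26618) passed the limit on 7 of 8 channels labelled ICM and 8 of 8 labelled TE. It had a log2 signal of 8.03 to 8.16 in the pools labelled ICM and 8.03 to 8.13 in the pools labelled TE, and a mean ratio of 0.025 (SE 0.02, limma adjusted p 0.622). The dimmer probe (EMBV3_42998) passed the limit on 1 of 8 channels labelled ICM and 2 of 8 labelled TE, with a mean ratio of -0.027 (SE 0.04, adjusted p 0.767). The sign of both followed the dye: the brighter probe averaged -0.056 with ICM in Cy5 and 0.11 with ICM in Cy3, and the dimmer one 0.087 with ICM in Cy5 and -0.14 with ICM in Cy3. A dependence on the dye at an adjusted p of 0.01 (limma with a dye term) was found for 5.26% of all probes and for 0 of these 15, of which 6 had an unadjusted p under 0.05. The share of all probes under that unadjusted cut is not given here, so the 6 are not shown to be unusual.

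STAT3, the transcription factor at the end of the chain, was lower on 8 of 8 arrays with each of its 3 probes. The brightest (EMBV3_37039) had a log2 signal of 8.06, 8.21, 8.40 and 8.18 in pools 1 to 4 labelled ICM, against 9.24, 8.82, 9.42 and 9.53 in pools 1 to 4 labelled TE, and the groups did not overlap. Its ratios of -1.18, -0.61, -1.02 and -1.36 averaged -1.04 (SE 0.13, n = 4), a 2.06-fold difference with a limma adjusted p of 0.0146. The mean was -0.71 on arrays with ICM in Cy5 and -1.37 on arrays with ICM in Cy3, a difference of 0.66 (SE 0.21, adjusted p 0.0518, limma with a dye term).

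The other STAT3 probes had smaller ratios. EMBV3_06535 had a log2 signal of 7.83, 8.09, 8.19 and 7.94 in pools 1 to 4 labelled ICM, against 8.51, 8.48, 8.60 and 9.20 in pools 1 to 4 labelled TE. It passed the limit on 4 of 8 channels labelled ICM and on 8 of 8 labelled TE. These groups did not overlap either, and the ratio averaged -0.69 (SE 0.16, limma adjusted p 0.0746). The size of this ratio moved with the processing. It was -1.15 with plain background subtraction and -1.25 with the deposited ratios, beside -1.49 and -1.45 for the brightest probe. EMBV3_18843 averaged -0.21 (SE 0.06, adjusted p 0.128), with overlapping groups. In all, 4 of the 15 probes had every pool labelled ICM below every pool labelled TE, against 6.88% of all probes, and 2 of the 4 were for STAT3.

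STAT5A, the STAT best known from prolactin signaling, averaged -0.011 (SE 0.03, limma adjusted p 0.876). Its log2 signal was 7.93 to 7.98 in the pools labelled ICM and 7.94 to 8.02 in the pools labelled TE, and it passed the limit on 2 of 8 channels labelled ICM and 4 of 8 labelled TE. SOCS3, the feedback inhibitor that STAT3 induces, was not well above background on any of the 16 channels. Its log2 signal was 7.80 to 7.88 in the pools of either label, and no fold is given.

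**Figure D3:**
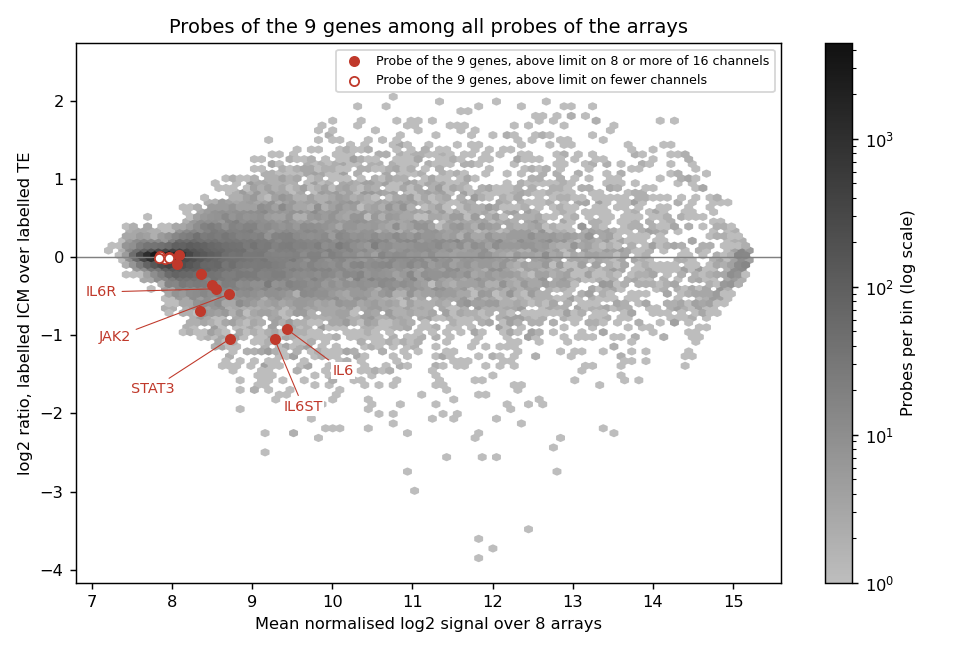
The x axis is the mean normalised log2 signal over 8 arrays and the y axis the log2 ratio of the RNA labelled ICM over that labelled TE, with grey bins for all 43794 probes and red points for the 15 probes of the 9 genes. Of the 15, 10 passed the negative control limit on at least 8 of 16 channels (filled), and the others (open) sit at the dim end, where the ratios of all probes are narrow around 0.

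By brightest probe the order of the mean ratios was IL6ST (-1.05), STAT3 (-1.04), IL6 (-0.92), JAK2 (-0.48) and IL6R (-0.41), then STAT5A (-0.011), LIFR (-0.0030) and JAK1 (0.025). SOCS3, not well above background, has no place in this order. Neighbours among the first 5 had overlapping pool pair ratios, so the order of neighbours is not resolved. IL6ST and STAT3 had lower ratios than IL6R within all 4 pool pairs, while IL6 and JAK2 did not. The ratios of IL6R (-0.91 to -0.13) did not overlap those of STAT5A, LIFR and JAK1 (-0.053 to 0.046), whose own ratios overlapped. LIFR (2 of 8 channels of either label) and STAT5A (2 of 8 labelled ICM, 4 of 8 labelled TE) mostly missed the negative control limit. Ratios near 0 for LIFR and STAT5A therefore do not measure how far these genes differ from IL6R. With plain background subtraction, which adds no offset, STAT5A averaged -0.044, LIFR -0.026 and JAK1 0.053. In that setting STAT3 averaged -1.49, IL6ST -1.29, IL6 -1.13, JAK2 -0.65 and IL6R -0.65, all further from 0 than as reported. The sizes of the ratios and folds given above therefore hold for the processing used here. A p above the threshold does not show equal RNA. The genes nearest to IL6ST in their 8 array ratios were ARG2, WDR34 and STARD3NL, with root mean square differences of 0.095, 0.12 and 0.13 in log2 and mean ratios of -1.09, -1.09 and -0.99.

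Further genes of the pathway came from a list of 63, of which 55 had a named probe. Of the 55, FOS was called lower and GAB1 was called higher, beside 1.92% and 3.35% of all genes in those directions. At an adjusted p of 0.05, 5 were lower and 3 higher, beside 6.85% and 8.69% of all genes. Ratios were negative for 19 and positive for 36, with a median of 0.024.

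Of 5 further ligand genes none was called (limma, 0 with an unadjusted p under 0.05). IL27, which had the smallest p of them, had a mean ratio of 0.036 (SE 0.03, adjusted p 0.577). It passed the limit on 3 of 8 channels labelled ICM and 2 of 8 labelled TE. LIF, named after its value was seen, was not well above background on any of the 16 channels. Of 4 further receptor genes none was called (limma, 1 with an unadjusted p under 0.05). IL11RA, the receptor chain for IL11, which had the smallest p of them, had a mean ratio of 0.086 (SE 0.02, adjusted p 0.110). It passed the limit on 5 of 8 channels labelled ICM and 1 of 8 labelled TE. TYK2, the 1 further kinase gene measured, averaged 0.13 (SE 0.05, adjusted p 0.258). Of 4 further STAT genes none was called (limma, 1 with an unadjusted p under 0.05). STAT2, which carries type I interferon signals, averaged 0.37 (SE 0.08, adjusted p 0.0637) and was higher in the RNA labelled ICM on 8 of 8 arrays, while STAT3 was lower on 8 of 8.

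Among 15 further feedback genes none was called (limma, 4 with an unadjusted p under 0.05), and ratios were negative for 7 and positive for 8. Over all genes an unadjusted p under 0.05 was found for 4578 of 15229. Of the 15, 13 passed the limit on at least 8 of 16 channels. PIAS1, an inhibitor of activated STAT proteins, averaged -0.71 (SE 0.10, adjusted p 0.0203). The other measured genes of the SOCS family were named after their values were seen. SOCS5 averaged -0.87 (SE 0.13, adjusted p 0.0228), SOCS1 averaged -0.29 (SE 0.17, adjusted p 0.450) and SOCS2 averaged 0.21 (SE 0.12, adjusted p 0.429), higher in the RNA labelled ICM on 7 of 8 arrays. CISH (-0.015), SOCS4 (0.0044) and SOCS6 (0.019) had ratios near 0. SOCS4 passed the limit on 7 of 8 channels of either label, and CISH on 5 of 8 labelled ICM and 3 of 8 labelled TE. SOCS6 passed it on 1 of 8 labelled ICM and 0 of 8 labelled TE, so its ratio is no measure of a fold. Of 7 adaptor genes GAB1, which links gp130 receptors to the ERK and PI3K pathways, was higher in the RNA labelled ICM with 1 of its 3 probes (0.88, SE 0.06, limma adjusted p 0.00400).

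Of 19 measured genes known as STAT3 targets in mouse or human cells, 5 had negative and 14 positive ratios. Of the 19, 15 passed the limit on at least 8 of 16 channels, and the signs of the others carry little information. FOS, an immediate early gene, was lower in the RNA labelled ICM with 1 of its 2 probes (-1.36, SE 0.08, limma adjusted p 0.00324). The calls of FOS and GAB1 were lost without any 1 of the 4 pool pairs (adjusted p 0.0102 to 0.0312). The other targets named here were picked after their values were seen. KLF4, a pluripotency factor that STAT3 induces in mouse stem cells, averaged -1.41 (SE 0.20, adjusted p 0.0201), and JUNB averaged -0.59 (SE 0.10, adjusted p 0.0310). In the other direction, CEBPD averaged 0.53 (SE 0.11, adjusted p 0.0494) and VEGFA averaged 0.27 (SE 0.04, adjusted p 0.0207), both on 8 of 8 arrays. MYC (0.011), MCL1 (0.079) and BCL2L1 (0.015) had ratios near 0 with signal above the limit on all 16 channels.

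**Figure D4:**
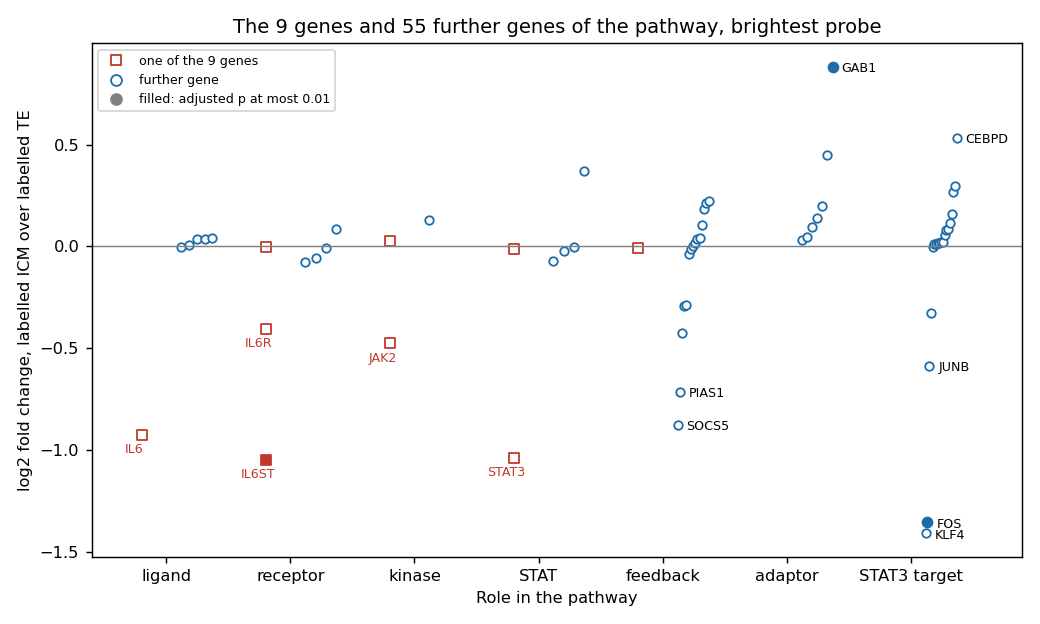
The y axis is the mean log2 ratio of the brightest probe, RNA labelled ICM over RNA labelled TE, for the 9 genes (red squares) and 55 further genes (blue circles) by role on the x axis; filled symbols passed an adjusted p of 0.01. The filled symbols are IL6ST (-1.05), FOS (-1.36) and GAB1 (0.88).

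Leukocytes also make IL6. Of the leukocyte markers PTPRC, CD3E, CD14 and LYZ none was called (limma, 0 with an unadjusted p under 0.05). Their summed linear signal was 5441, 2191, 1081 and 2726 in pools 1 to 4 labelled ICM, against 4655, 2363, 1077 and 2245 in pools 1 to 4 labelled TE. PTPRC carried most of that sum where it was high, with a log2 signal of 12.21, 10.50, 8.47 and 10.99 in pools 1 to 4 labelled ICM, against 11.90, 10.65, 8.44 and 10.44 in pools 1 to 4 labelled TE. The other 3 markers lay between 7.67 and 8.10 in the pools labelled ICM and between 7.85 and 8.39 in the pools labelled TE. LYZ passed the limit on 0 of 8 channels labelled ICM and 4 of 8 labelled TE, and CD14 on 1 of 8 labelled ICM and 2 of 8 labelled TE. The part of leukocytes in the IL6 ratio was not tested.

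**Figure D5:**
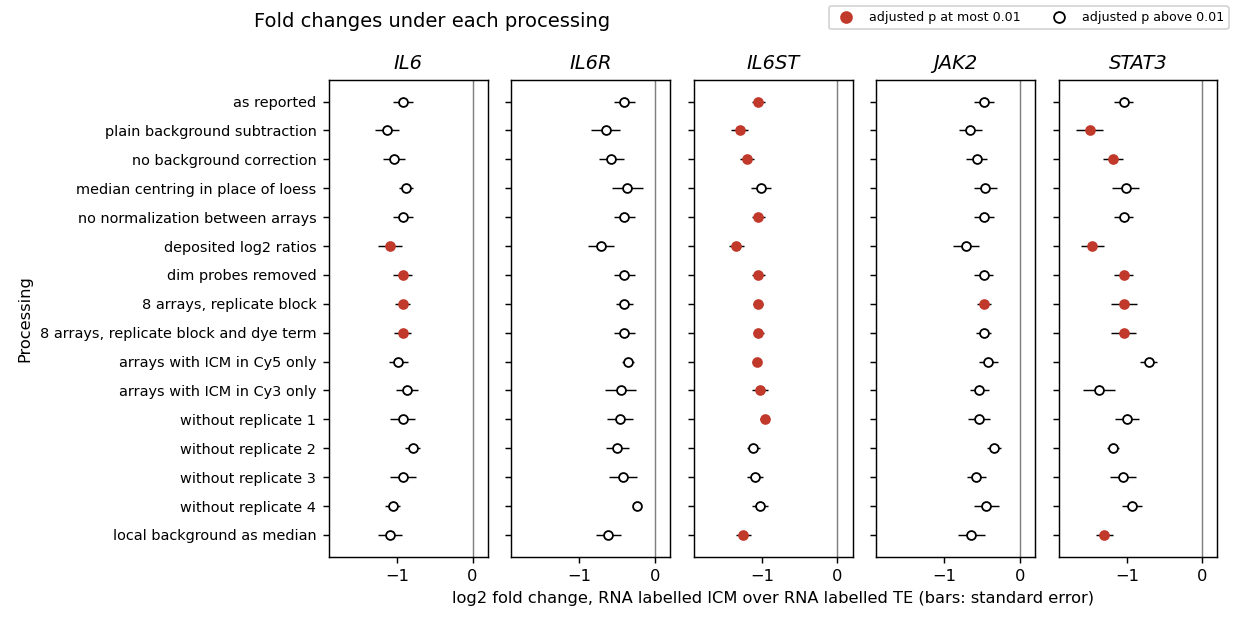
Each panel shows the mean log2 ratio (x axis) of 1 gene's brightest probe with its standard error, as reported (top) and under 15 other ways of processing down the y axis; filled points have a limma adjusted p at or below 0.01. All points of these 5 genes are negative, 4 of the 15 ways leave the mean ratio as it is by construction, and IL6ST was called in 11 of the 15, STAT3 in 7, IL6 in 4, JAK2 in 1 and IL6R in 0. The JAK2 call came from the replicate block without a dye term, which counts the arrays of a pool pair as nearly independent.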

How the data were processed

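RNA of ICM and TE pools was amplified with T7 polymerase, dyed with Cy3 or Cy5 and hybridised in dye-swapped pairs. The deposited scanner files hold raw spot intensity and local background intensity per channel, which the authors had read out with Array-pro and not yet corrected. The authors also deposited a table of log2 values, and the methods name background subtraction, loess and quantile steps; its scale, centring and direction are not stated. Its column medians ran from -0.0257 to 0.00451, and its columns correlated with log2 of Cy5 over Cy3 of the scanner files (r across probes, which are not independent, of 0.576 to 0.868), so it was read as such ratios and used only as an alternative. The submitters' processing notes name limma.

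Mean spot intensity was corrected by mean local background with normexp (offset 50), because the plain subtraction named in the methods can give values that have no logarithm. Marked spots (at most 47 per array) were dropped, none of them of the 9 genes. Loess (controls at weight 0) and Aquantile followed, and the 2 arrays with the same replicate number were averaged. The mean of the 4 pool pair ratios was fitted with limma 3.58.1 (lmFit, eBayes; R 4.3.3), with Benjamini-Hochberg adjustment over 43794 probes. The brightest probe stands for its gene. The steps were tested on simulated data. Choices of background, loess, threshold, dim probes, dye, replicate block and left-out replicates were varied.

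Median raw signal per channel was 110 to 332, or 2.47 to 7.83 times the local background, and 48.2% to 65.6% of probes passed the negative control limit. Precision is limited by the number of pool pairs (4), since the 2 arrays of each pair were averaged.

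Replicate numbers pair the arrays. After the mean of its dye orientation was removed, an array correlated with the other array of its number at r = 0.839, 0.656, 0.553 and 0.555 for numbers 1 to 4, and with arrays of other numbers at -0.548 to 0.158. Removing that mean makes the values of an orientation sum to 0, so part of this contrast is fixed by construction. The 9 genes and all lists were chosen with earlier results of these data known. The text names the 9 genes, NANOG and the called genes of the wider list, or else the one of smallest p in a role. It names up to 2 markers of smallest p from each of the epiblast, trophoblast and hypoblast lists. All 4 leukocyte markers, the genes nearest to IL6ST and genes said to be named after their values were seen are also named. TFAP2A, DPPA3, HNF4A and PDGFRA came from the rule on markers. The platform annotation pairs 21790 probes with 1 symbol and leaves 22004 unnamed here. Sequences were not used here.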

Additional observations from a re-analysis of the deposited data

Results flagged for a closer look

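Among 51 sets of 4 pool values (ratios and levels of the probes reported), 1 held a value far from the rest, and chance gives about 1 in 20. The second JAK2 probe (EMBV3_24166) had a log2 signal of 8.56 in pool 3 labelled ICM, against 8.23 to 8.27 in the other pools labelled ICM. For 3 probes every array with ICM in Cy5 had one sign and every array with ICM in Cy3 the other. The share of all probes with this pattern is not given here, so these 3 are not shown to be unusual. The mean ratio with ICM in Cy5 minus that with ICM in Cy3 was -0.16 for JAK1 (EMBV3_26618, SE 0.03, adjusted p 0.0143, limma with the pool pair as a block and a dye term), 0.23 for the dimmer JAK1 probe (EMBV3_42998, SE 0.04, adjusted p 0.0106) and -0.11 for STAT5A (EMBV3_14293, SE 0.03, adjusted p 0.0347).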

How the results depend on the processing

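The brightest probes of IL6, IL6R, IL6ST, JAK2 and STAT3, and the other probes of JAK2 and STAT3, kept their sign under the 11 alternatives that could move it; the other 4 (no normalization between arrays, dim probes removed, and the block with or without a dye term) leave a mean ratio as it is by construction. The limma adjusted p ranged from 0.000213 to 0.0852 for IL6, from 9.24e-06 to 0.0610 for IL6ST and from 0.000165 to 0.0938 for STAT3. As reported, 1 of the 9 genes, 1 of the 15 probes, 2 of the 55 further genes and 1433 of all probes were called. Leaving out each replicate gave 0 to 1, 0 to 1, 0 to 0 and 0 to 828. Without replicate 2, 3 and 4 no probe was called, the smallest adjusted p was 0.0103, 0.0140 and 0.0123, and 8351, 8732 and 9320 probes (5, 4 and 4 of the 9 genes) had an unadjusted p under 0.05. Median centring gave 0, 0, 0 and 1 (4 of the 9 genes, 6 of the 15 probes, 10 further genes and 7190 of all probes with an unadjusted p under 0.05), with mean ratios of -1.01 for IL6ST, -1.01 for STAT3 and -0.88 for IL6. In the same order, the deposited ratios gave 3, 4, 6 and 4029, the removal of dim probes 3 of 6, 3 of 10, 4 of 40 and 2355 of 25264 left to test, an adjusted p of 0.05 gave 3, 3, 8 and 4711, and the median local background, chosen after seeing the data, gave 2, 2, 6 and 2897. Plain subtraction gave 2, 2, 3 and 2126, and no background correction 2, 2, 2 and 2060. With all 8 arrays and the replicate number as a block the counts were 4, 4, 11 and 5319 (consensus correlation 0.0357), and with a dye term beside the block 3, 3, 10 and 4531 (0.438).

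Probes that changed sign had ratios near 0. Median centring gave 0.010 for LIFR and 0.0019 for STAT5A, and the deposited ratios gave -0.014 for JAK1 (EMBV3_26618) and 0.066 for STAT5A. For the probes not well above background, whose values are no measure of a fold, median centring gave -0.044 (IL6, EMBV3_16380), and the deposited ratios gave 0.15 and plain subtraction 0.018 (SOCS3). Arrays with ICM in Cy3 gave 0.016 for LIFR and 0.043 for STAT5A, and arrays with ICM in Cy5 gave -0.056 (EMBV3_26618) and 0.087 (EMBV3_42998) for JAK1. Leaving out each replicate gave -0.017 to 0.0081 for LIFR, -0.025 to 0.0034 for STAT5A and -0.051 to 0.011 for JAK1 (EMBV3_42998), and the median local background gave 0.0055 for that JAK1 probe. The cause was not tested.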
